A study of Mus musculus with 2 samples.

Results

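The 150 autosomal loci with the lowest reads at 78 weeks relative to 9 weeks were examined in nuclei of the mouse heart. They were chosen by the ratio of the deposited read totals, from loci on chromosomes 1 to 19 that were listed at both ages and held at least 200 reads summed over both, and they make up 1.86% of the 8051 autosomal loci that met this minimum. Because the rule used these totals, the ratios of the members are a description and carry no test. The rule did not use the allele of a read, the function of a gene, its type or its position, but the reads of both alleles add up to the total that it used.

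Nuclei came from frozen hearts of 2 wild-type F1 females of a BL6 mother (C57BL/6J) and a CAST father (CAST/EiJ), 1 adult of 9 weeks and 1 aged of 78 weeks. The genotype label of both libraries names this wild-type cross, whereas their breed label names a BL6 strain with an Xist deletion, and the wild-type cross that the study's methods state was used. The name under which the aged values were deposited states another age than the labels, and the labelled age was used. Nuclei were sorted on a DNA dye, and only those with an active BL6 X chromosome were pooled at each age, so that nuclei with an active CAST X chromosome and the identity of each nucleus are not part of the values. Each age has 1 library from 1 heart, and animal, library and age cannot be told apart. The libraries held 9747535 SNP-overlapping reads at 9 weeks and 5805807 at 78 weeks, that is reads covering a position at which BL6 and CAST differ.

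Levels are scaled to 1000000 SNP-overlapping reads of the library (RPM), and the ratio is the level at 78 weeks over the level at 9 weeks. All intervals are exact 95% intervals of the counts or Newcombe intervals of a difference in shares, and they cover counting error only, not the spread between animals. The median ratio of all 8051 loci was 1.12, or 0.16 on the log2 scale, and 60.8% of them lay above 1. A level in pooled nuclei depends on the number of nuclei of a cell type and on the RNA in each, and fewer cells of a type and less RNA per cell cannot be told apart here.

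The adult heart holds ventricular and atrial cardiomyocytes, fibroblasts, endothelial and mural cells and resident immune cells, and it is covered by the epicardium, a mesothelial sheet. Cardiomyocyte contraction depends on the sarcomere, whose thick filaments are held at the M-band, and repolarization depends on several potassium currents. An F1 nucleus carries a BL6 and a CAST copy of each autosomal gene, so that the reads of each allele are a readout of the same nuclei split by chromosome.

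The members' ratios ran from 0.0555 to 0.331 with a median of 0.241, which corresponds to levels 3.02-fold to 18.0-fold lower at 78 weeks and 4.16-fold at the median. A ratio of 0.5 or lower was found for 6.2% of all loci, and an upper limit of the interval below 0.5 for 3.6%. By their selection all 150 members met both. Over all loci the interval of the ratio lay wholly below 1 for 26.9% and wholly above 1 for 45.9%, against 150 and 0 members. The members held 283573 reads at 9 weeks, 2.91% of the library, and 38842 at 78 weeks, or 0.669%, and the 15 members with most reads held 62.1% of all members' reads. Adult reads per member ranged from 172 to 31650 with a median of 598, and aged reads from 9 to 3474 with a median of 83. Among all loci the medians were 414 and 273 reads. The median of adult reads was therefore higher in the members than in all loci. This cannot be read apart from the rule, since loci with a low ratio met the read minimum mostly through adult reads. Summed over both ages, the median was 696 reads in the members and 697 in all loci. Of the members, 4 had fewer than 20 aged reads.

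**Figure D1:**
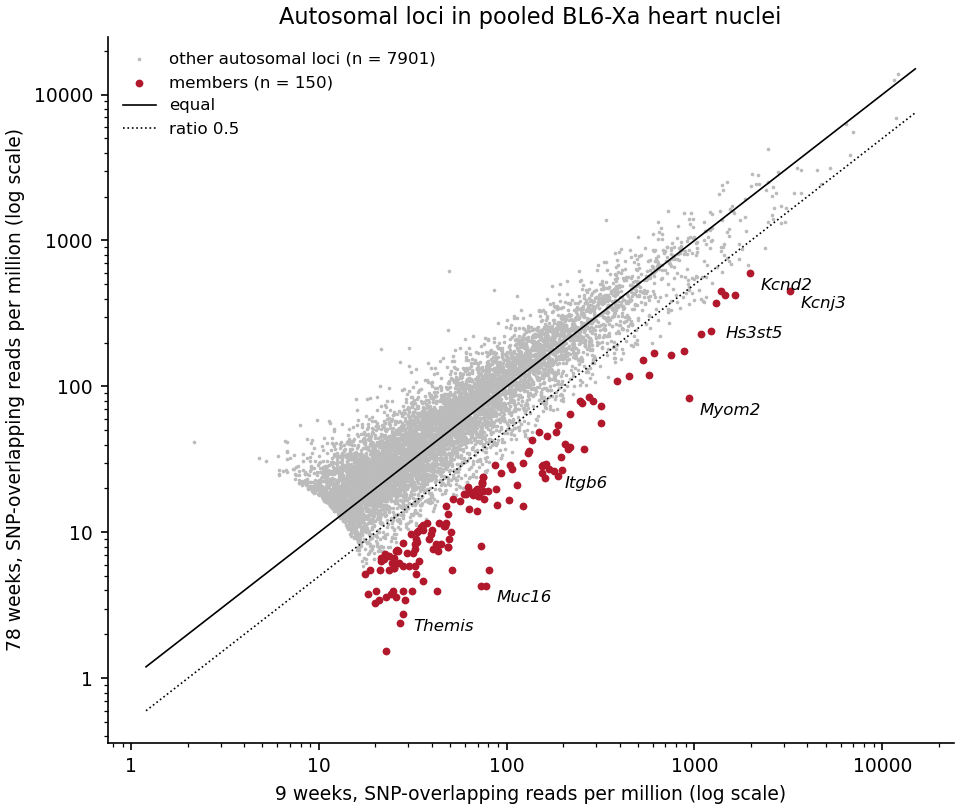
Level (RPM) at 9 weeks (x axis, log scale) and at 78 weeks (y axis, log scale) for the 8051 autosomal loci, with the 150 members in red and the other 7901 loci in gray. The solid line marks equal levels and the dotted line a ratio of 0.5, and all members lie below the dotted line because they were selected on this ratio.

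The values just around the threshold were close together. The members just inside were Tbc1d31 at 0.325, Fgf12 at 0.325, Nubpl at 0.326, LOC105243337 at 0.328 and Arhgap28 at 0.331. Just outside followed Cyfip2 at 0.332, Gm35165 at 0.332, Gm32939 and Gm38772 both at 0.332, and Dync1i1 at 0.333.

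The lowest ratio was found for Muc16, a large mucin of mesothelial and other epithelial surfaces, at chromosome 9, 18495445 to 18674821. It had 756 reads at 9 weeks and 25 at 78 weeks, or 77.6 and 4.31 RPM, a ratio of 0.0555 (0.0357 to 0.0826). Of its reads, 378 were from BL6 and 378 from CAST at 9 weeks, and 9 and 16 at 78 weeks, so that both alleles were at a small part of their adult level. The 250 bases before a RefSeq start of Muc16, chr9:18674604-18674853 on the minus strand of GRCm38.p6, are shown because this member had the lowest ratio, and none of the 6 motifs searched was in them.
Muc16: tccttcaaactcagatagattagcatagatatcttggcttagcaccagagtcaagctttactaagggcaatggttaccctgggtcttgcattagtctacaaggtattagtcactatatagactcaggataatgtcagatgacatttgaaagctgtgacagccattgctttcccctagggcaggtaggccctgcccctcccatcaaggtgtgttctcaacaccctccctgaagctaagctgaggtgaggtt

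Muc16 was 1 of 4 members on the list of epicardial and mesothelial markers, of which 8 had enough reads. Gpm6a, a membrane glycoprotein of neurons and mesothelium, had 10545 and 1331 reads, or 1082 and 229.3 RPM, a ratio of 0.212 (0.2 to 0.224). Wt1, a transcription factor of the epicardium, had 328 and 59 reads, a ratio of 0.302 (0.225 to 0.399). The fourth, Kcnd2, is also on the potassium channel list and is described with it. The other 4 markers with enough reads were near 1, with Sulf1 at 1.12, Bnc2 at 1.17, Aldh1a2 at 0.869 and Tbx18 at 0.826. Several markers below the read minimum, named after their values were seen, were lower as well. Upk3b, a uroplakin of mesothelial cells, had 94 reads at 9 weeks and 5 at 78 weeks, Bnc1 had 57 and 6, Msln, which encodes mesothelin, had 31 and 2, and Upk1b had 27 and 2. Over the 18 listed markers that had reads, the interval of the ratio lay below 1 for 11 and above 1 for 2, and none was without an aged read. The summed level of the list was 3964 RPM at 9 weeks and 1696 RPM at 78 weeks, a ratio of 0.428. Of the 3964 RPM at 9 weeks, Kcnd2 held 1975 and Gpm6a 1082, both selected for low ratios. Without the 4 members the ratio was 1.07, a sum in which Sulf1 held 405.1 and Bnc2 290.6 of 795.7 RPM at 9 weeks. The part of the epicardial sheet caught in each piece of tissue was not tested.

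Other members encode proteins of epithelial matrix or of cell adhesion. Fras1, which builds a complex of the epithelial basement membrane, had 784 reads at 9 weeks and 32 at 78 weeks, a ratio of 0.0685 (0.0465 to 0.0976). Frem2, which acts in the same complex, had 413 and 23 reads, a ratio of 0.0935 (0.0586 to 0.142). Its CAST reads were 101 at 9 weeks and 0 at 78 weeks, and the upper limit of the CAST ratio was 0.0625. Itgb6, the beta chain of an epithelial integrin that activates latent TGF beta, had 1735 and 153 reads, a ratio of 0.148 (0.125 to 0.175). Cdh20, a classical cadherin, had 709 and 25 reads, a ratio of 0.0592 (0.0380 to 0.0881). These 4 genes were on no list, and whether they share a cell type in these nuclei was not tested.

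Among sarcomere genes, Myom2 stood at the low end. Myom2 encodes M-protein, which links thick filaments at the M-band, and lies at chromosome 8, 15057653 to 15133420. It had 9117 reads at 9 weeks and 485 at 78 weeks, or 935.3 and 83.5 RPM, a ratio of 0.0893 (0.0814 to 0.0979). The BL6 ratio was 0.0848 and the CAST ratio 0.0927, and the interval of each held the other. It was the only member among the 37 genes of the sarcomere and Z-disc list with enough reads, whose median ratio was 0.977. In that list the interval lay below 1 for 17 genes and above 1 for 14. Its paralog Myom1, chosen for comparison after its value was seen, had a ratio of 1.07, and the listed genes with most reads were Ttn at 0.580, Fhod3 at 0.779 and Pdlim5 at 1.72.

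Asb14, a substrate adaptor of a ubiquitin ligase, had 4357 reads at 9 weeks and 680 at 78 weeks, a ratio of 0.262 (0.241 to 0.284). Its relative Asb15, named after its values were seen, had 1599 and 265 reads, a ratio of 0.278. The 250 bases before a RefSeq start of Asb14, chr14:26894364-26894613 on the plus strand of GRCm38.p6, held 2 TATA boxes (TATAAA, here on the opposite strand as TTTATA) and 1 CCAAT box, all in capitals. They are shown because Asb14 and Asb15 were among the 18 members' promoters with a TATA box.
Asb14: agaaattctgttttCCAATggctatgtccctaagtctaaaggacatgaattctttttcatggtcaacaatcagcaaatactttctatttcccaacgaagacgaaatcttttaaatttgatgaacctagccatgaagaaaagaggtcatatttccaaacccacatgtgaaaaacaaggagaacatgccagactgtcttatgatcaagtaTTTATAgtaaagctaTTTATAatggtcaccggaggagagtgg

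Potassium channel genes had 4 members of 18 with enough reads. Kcnj3 encodes a subunit of the channel that carries the acetylcholine-activated current of atrial and pacemaker cells, and it had more reads than any other member. At 9 weeks it had 31650 reads and at 78 weeks 2616, or 3247 and 450.6 RPM, a ratio of 0.139 (0.133 to 0.144). Its BL6 ratio was 0.15 (0.142 to 0.158) and its CAST ratio 0.126 (0.118 to 0.134), so that both alleles were lower and the CAST allele more so. The 250 bases before a RefSeq start inside the listed span of Kcnj3, chr2:55435720-55435969 on the plus strand of GRCm38.p6, are shown because Kcnj3 held most reads of the members, with a CCAAT box on the opposite strand (ATTGG) in capitals.
Kcnj3: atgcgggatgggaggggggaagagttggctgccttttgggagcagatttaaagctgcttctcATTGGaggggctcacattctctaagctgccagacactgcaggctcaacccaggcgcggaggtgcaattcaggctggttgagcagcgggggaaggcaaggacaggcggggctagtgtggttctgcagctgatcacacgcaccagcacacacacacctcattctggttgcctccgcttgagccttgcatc

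Kcnn2, a small-conductance calcium-activated potassium channel, had 8623 reads at 9 weeks and 1009 at 78 weeks, a ratio of 0.196 (0.184 to 0.210), with a BL6 ratio of 0.197 and a CAST ratio of 0.196. Kcnd2, a channel of the transient outward current, had 19252 and 3474 reads, or 1975 and 598.4 RPM, a ratio of 0.303 (0.292 to 0.314). Kcnh7, a channel of the ERG family, had 386 and 57 reads, a ratio of 0.248 (0.184 to 0.328). The median ratio of the 18 genes was 0.698, and the interval lay below 1 for 11 and above 1 for 5. The genes of the list with most reads that are no members were Kcnt2 at 1.14, Kcnq1 at 0.485, Kcnq5 at 0.629 and Kcnd3 at 0.451. The summed level of the list was 8649 RPM at 9 weeks and 3446 RPM at 78 weeks, and the ratio of the sum was 0.398 with the members and 0.884 without them.

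Kcnj3 was also on the lists of atrial and pacemaker markers. The atrial list held 3 members among 13 genes with enough reads, Kcnj3, Fgf12 and Sbk3. Fgf12, an intracellular relative of fibroblast growth factors that binds sodium channels, had 13460 reads at 9 weeks and 2609 at 78 weeks, a ratio of 0.325 (0.312 to 0.339). Sbk3, a kinase with expression in the atrium, had 250 and 43 reads, a ratio of 0.289 (0.204 to 0.400). The summed ratio of the atrial list was 0.451, a sum in which Kcnj3 held 3247 and Fgf12 1381 of 6827 RPM at 9 weeks. Without the 3 members it was 0.999, a sum in which Pam held 1403 of 2173 RPM at 9 weeks. The 10 other genes with enough reads had a median of 0.871, with 7 below 1, and over all 13 the interval lay below 1 for 9 and above 1 for 3. The count of 3 members was 1 with a minimum of 100 reads, without overlapping loci or with a ranking on CAST reads. Other atrial markers went in several directions. Nppa, the atrial natriuretic peptide gene, was at 0.818, Sln, which encodes sarcolipin, at 0.661, Pam at 0.988 and Itga9 at 1.33, and below the read minimum Myl7 had 38 and 10 reads, Bmp10 had 29 and 1 and Nppb had 3 and 22. Over the 25 listed atrial markers that had reads, the interval lay below 1 for 14 and above 1 for 4. Sln, Myl7, Bmp10 and Nppb were named after their values were seen, and whether the tissue pieces held different shares of atrium was not tested. Of the 7 pacemaker and conduction genes with enough reads, Kcnj3 was the 1 member and the interval lay below 1 for 3 and above 1 for 3.

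The markers of the main cell types of the ventricle held no member. Members are 1.86% of all loci, so that lists this short could hold none without differing from other loci. The 19 ventricular cardiomyocyte markers with enough reads had a median ratio of 1.23 and a summed ratio of 0.957, and the 17 fibroblast markers had 1.14 and 1.04. Among the 17 capillary and general endothelial markers these were 1.25 and 0.944. For the 10 pericyte markers the median was 2.15, and for the 10 macrophage and monocyte markers it was 1.67. The 12 adipocyte markers also held no member, with a median of 0.628. Of the 44 lists, 12 held a member, and 20 of the 150 members were on a list.

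**Figure D2:**
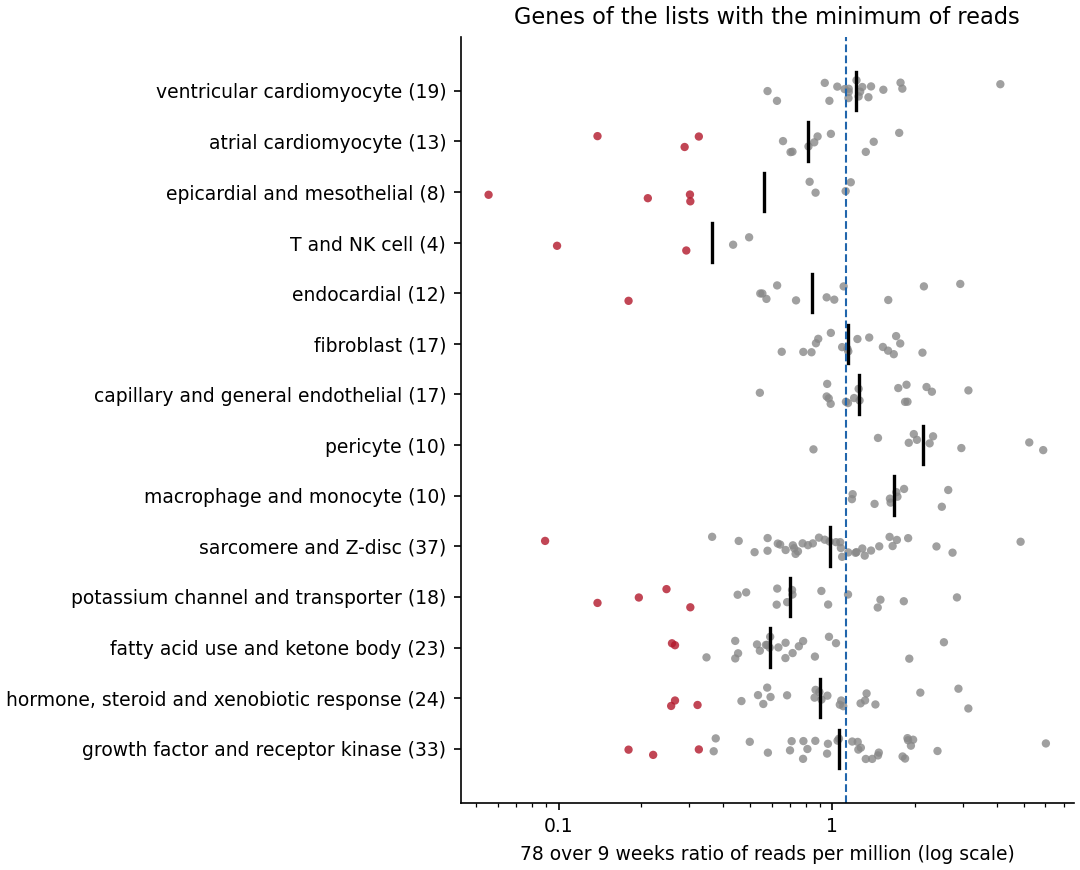
Ratio of levels (RPM), 78 over 9 weeks (x axis, log scale), for each gene with at least 200 reads on 14 gene lists, with the number of genes in brackets. Members are in red and other genes in gray, black bars are list medians and the dashed line is the median of all loci at 1.12. Members were selected for low ratios, so red points lie at the left of every list that holds them. The ventricular, fibroblast, capillary and general endothelial, pericyte and macrophage lists hold none, where members are 1.86% of all loci.

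T and NK cell markers had 4 genes with enough reads, and 2 were members. Themis, which acts in the development of T cells in the thymus, had 272 reads at 9 weeks and 16 at 78 weeks, a ratio of 0.0988 (0.0557 to 0.163). Skap1, an adaptor of T cell receptor signaling, had 172 and 30 reads, a ratio of 0.293 (0.192 to 0.433). The other 2 were Tox at 0.434 and Satb1 at 0.497. Below the read minimum, and named after their values were seen, Bcl11b had 85 reads at 9 weeks and 1 at 78 weeks, Cd8b1 had 17 and 0, Rag1 had 17 and 0, Cd3d had 23 and 1 and Cd3e had 9 and 0. Also named in this way, genes with a ratio near or above 1 included Lck with 42 and 25 reads and Cd4 with 8 and 5. Ikzf3 had 39 and 29 reads, a ratio of 1.25, and Prf1 had 9 and 15, a ratio of 2.80. The interval lay below 1 for 14 of the 24 listed genes that had reads and above 1 for 1, Prf1, and 7 had no aged read. The list summed to 332.5 RPM at 9 weeks and 140.7 RPM at 78 weeks. Cd28 and Cxcr6, receptors of T cells that are members on no list, had 351 and 65 reads and 301 and 57 reads, and they too were named after their values were seen. Part of these genes are also expressed outside T cells, and the source of their reads was not tested.

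Ligands and receptors among the members included Nrg1, Angpt1 and Nr3c2. Nrg1, a neuregulin that the endocardium makes as a ligand of ErbB receptors, had 1584 reads at 9 weeks and 170 at 78 weeks, a ratio of 0.180 (0.153 to 0.211). It was the 1 member among 12 endocardial markers, whose median was 0.845. Angpt1, the ligand of the endothelial receptor Tie2, had 7280 and 961 reads, a ratio of 0.222 (0.207 to 0.237). Among the 33 growth factors and receptor kinases with enough reads, Nrg1, Angpt1 and Fgf12 were members, and the interval lay below 1 for 12 and above 1 for 16. Erbb4, a receptor for neuregulins and the autosomal gene of that list with most reads, had a ratio of 0.375.

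Nr3c2, the mineralocorticoid receptor, had 16122 reads at 9 weeks and 2476 at 78 weeks, or 1654 and 426.5 RPM, a ratio of 0.258 (0.247 to 0.269). With Ephx2, a hydrolase of epoxy fatty acids at 0.322, and Pdk4 it was 1 of 3 members among 24 genes of the hormone and xenobiotic list, whose median was 0.905. Pde1c, a phosphodiesterase activated by calcium and calmodulin, had 14165 and 2442 reads, a ratio of 0.289 (0.277 to 0.302). It was the 1 member of the 26 genes for angiotensin, adrenergic and cyclic nucleotide signaling, whose median was 0.954, with the interval below 1 for 11 and above 1 for 10. The gene of that list with most reads, Pde4d, was at 0.571, and Pde10a, named after its value was seen, was at 12.6. Asb4, a maternally expressed gene in parts of the mouse, was the 1 member of 23 imprinted genes with enough reads. It had 318 and 48 reads, and its BL6 share was 56.0% and 54.2%, so that reads came from both alleles at both ages.

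Genes of fatty acid use had 2 members of 23, Pdk4 and Ucp3. Pdk4, a kinase that shuts off pyruvate dehydrogenase, had 1784 reads at 9 weeks and 283 at 78 weeks, a ratio of 0.266 (0.234 to 0.302). Ucp3, a mitochondrial carrier induced by fatty acids, had 388 and 60 reads, a ratio of 0.260 (0.194 to 0.341). In this list the interval lay below 1 for 19 genes and above 1 for 2, against 26.9% and 45.9% of all loci. Its median was 0.593, and the genes with most reads were Cd36 at 0.544, Ppargc1a at 0.572 and Oxct1 at 0.675. Without the 2 members the summed ratio of the list was 0.632, so that lower levels were not limited to the members.

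Several members with many reads were on no list. Hs3st5, a sulfotransferase of heparan sulfate, had 12006 reads at 9 weeks and 1387 at 78 weeks, a ratio of 0.194 (0.183 to 0.205). Fam134b, a receptor for the turnover of endoplasmic reticulum that RefSeq lists as Retreg1, had 5562 and 691 reads, a ratio of 0.209. Rbfox1, a splicing factor, had 12681 and 2179 reads, a ratio of 0.288. Fign, a microtubule-severing enzyme, was at 0.281 and Ano4, an anoctamin, at 0.287. Sun3, a nuclear envelope protein best known from spermatids, had 501 and 32 reads, a ratio of 0.107, and Ankrd55 had 251 and 21, a ratio of 0.141. Among members named after their values were seen were Clcn1, the chloride channel of skeletal muscle, at 0.226, Art1, a muscle ADP-ribosyltransferase, at 0.309, Epha7, an ephrin receptor, at 0.320, Prlr, the prolactin receptor, at 0.251, and Rxfp1, the relaxin receptor, at 0.307.

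**Figure D3:**
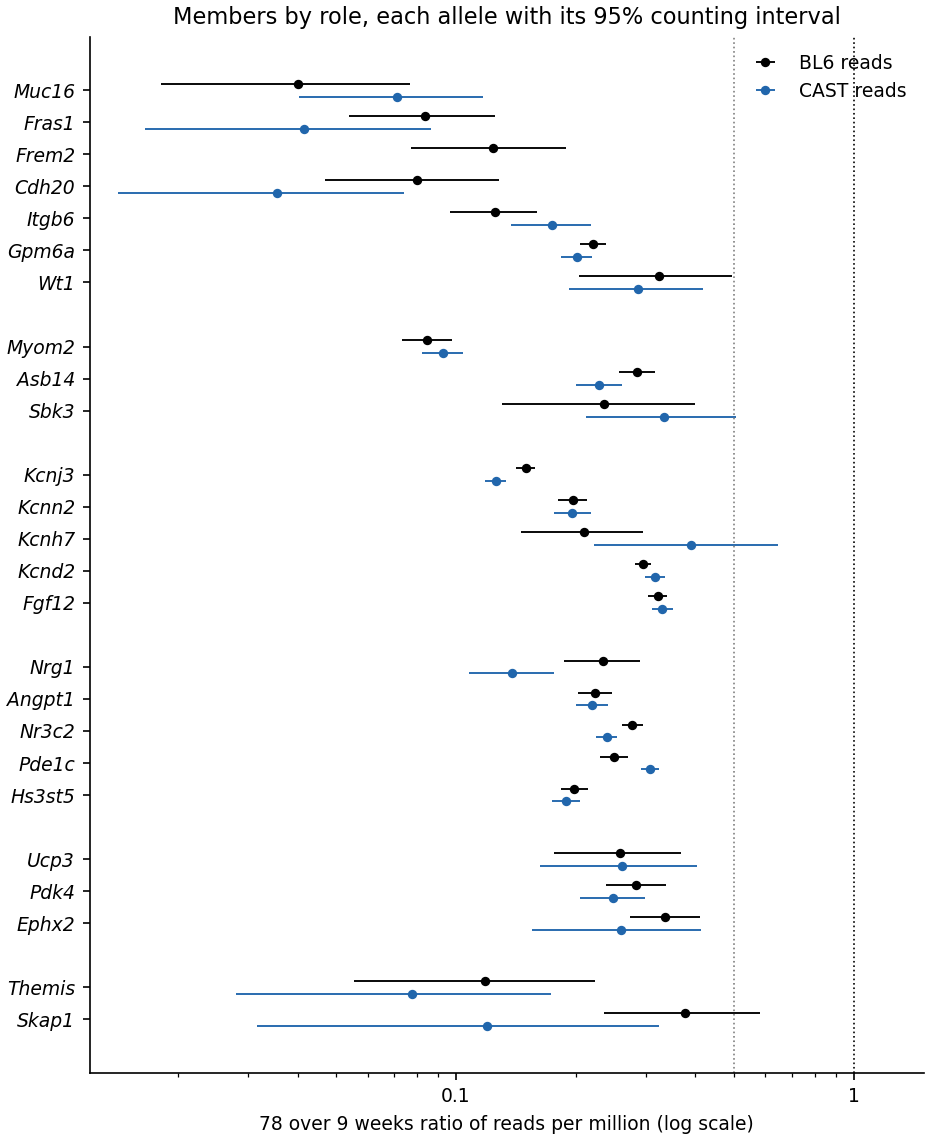
Ratio of BL6 reads (black) and of CAST reads (blue), both in RPM, 78 over 9 weeks (x axis, log scale), with exact 95% counting intervals, for 25 members. They are ordered by role, from genes of the epicardial list, epithelial matrix and cell adhesion at the top to T cell genes at the bottom. Every drawn point lies left of the dotted line at 0.5, and the CAST allele of Frem2, with 0 aged reads, is not drawn.

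By RefSeq type, 85 members were protein coding and 57 were long noncoding RNAs, 3 were of another type and 5 were not matched. Long noncoding RNAs made up 38% of the members and 8.41% of all loci. The span of 31 of the 57 noncoding members and of 35 of the 85 coding members overlapped another listed locus. Reads in a shared span can count for both, and how far this raises the noncoding share was not tested. Of the 677 long noncoding RNAs with enough reads 8.42% were members, compared with 1.17% of the 7260 protein coding genes. Over all loci of each type the median ratio was 0.954 for long noncoding RNAs and 1.13 for protein coding genes, and 18.2% and 4.93% lay at 0.5 or lower. Placeholder symbols, which start with Gm or LOC or end with Rik, were carried by 67 members, 44.7% compared with 10.7% of all loci. The members spanned a median of 62.4 kb against 40.7 kb for all loci, and 58 members spanned 100 kb or more, 38.7% compared with 22.1%. Coding members had a median span of 128.8 kb and noncoding members 32.6 kb, compared with 43.7 and 20.3 kb for all loci of these types.

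The noncoding members with the lowest ratios had few aged reads. Gm30687 had 223 reads at 9 weeks and 9 at 78 weeks, a ratio of 0.0678 (0.0306 to 0.131). Gm34568 had 264 and 14 reads, a ratio of 0.0890. Members of this kind with more reads were Gm40604 with 1820 and 141 reads at 0.130 and Gm30866 with 1914 and 155 reads at 0.136. For Gm12519, Gm11264, Gm40652, Gm10635 and Gm35254 the ratios lay between 0.111 and 0.156. D7Ertd443e, a coding gene with a placeholder name, had 1554 and 137 reads, a ratio of 0.148, and Gm33002, which RefSeq did not match, had 304 and 23 reads, a ratio of 0.127.

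Members lay on all 19 autosomes. Chromosome 19 held 1 member, 0.667% compared with 3.42% of all loci, and chromosome 2 held 16, 10.7% compared with 7.73%. The span of 69 members overlapped another listed locus, 46.0% compared with 41.3% of all loci, and reads in a shared span can count for both. Overlaps between members made 12 groups with 25 members, so that the 150 members stand for 137 distinct stretches. Among them, members with placeholder names overlapped Kcnn2 (Gm31907 at 0.145), Rapgef4 (LOC105244195 at 0.141), Itgb6 (Gm33436 at 0.299), Angpt1 (Gm41313 at 0.312), Fgf12 (LOC108168283 at 0.255), Actr3b (Gm42237 at 0.244) and Fam65b (Gm11346 at 0.232). Host genes of that group on no list were Rapgef4, an exchange factor activated by cyclic AMP, at 0.232, Actr3b, an actin-related protein, at 0.178, and Fam65b, listed in RefSeq as Ripor2, at 0.292. Gm32753 at 0.280 overlapped Gm40055 at 0.243.

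LOC108168059 and Gm36703, whose spans overlap in part, had nearly equal reads, 1494 and 1525 at 9 weeks and 165 and 169 at 78 weeks, and cannot be read as separate observations. Within 100 kb of each other lay 41 members in 19 groups. No such count was made over all loci, here or for the groups of overlapping members. Whether members lie closer together than other loci was not tested. The largest group held 5 members on chromosome 9, from 92143362 to 92297752, a stretch of 154.4 kb. It contained Plscr5 and Plscr2, members of the phospholipid scramblase family, and LOC108167711, Gm31588 and Gm31531, at ratios of 0.157 to 0.227. Plscr5 had 1100 reads at 9 weeks and 122 at 78 weeks, a ratio of 0.186, and Gm31588 had 2075 and 218, a ratio of 0.176. Nr3c2 and Gm10649, at 0.159, formed another group, as did Pdk4 and Asb4.

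Both alleles were lower at 78 weeks in nearly all members. The ratio was below 1 for both alleles in 149 of the 150 members, against 30.4% of all loci, and at or below 0.5 for both in 141 members, against 4.1%. Since the alleles add up to the total used in the selection, most of this follows from the rule when reads of both alleles are frequent. The median BL6 ratio was 0.236 and the median CAST ratio 0.221, and the ratio of the summed reads was 0.232 (0.229 to 0.236) for BL6 and 0.228 (0.224 to 0.231) for CAST. The allele ratios of a member were within 1.5 times of each other for 79 members, with a median factor of 1.42 between them. This was not counted over all loci, so whether the members differ in it was not tested. The upper limit of the interval was below 1 for both alleles in 138 members, against 16.6% of all loci. It was below 0.5 for both in 108 members, against 1.94%.

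A ranking on the reads of 1 allele leaves the other allele out of the selection, although both come from the same nuclei and are no replicates. The 150 loci with the lowest BL6 ratio among 8282 with enough BL6 reads had a median CAST ratio of 0.281. Their CAST ratio was below 1 for 148, or 98.7% compared with 41.2% of all, and at or below 0.5 for 128, or 85.3% compared with 7.56%. In the ranking on CAST reads, the median BL6 ratio was 0.295, and it was below 1 for 145 loci, or 96.7% compared with 40.1%, and at or below 0.5 for 121, or 80.7% compared with 6.49%. Each of these rankings shared 105 loci with the members.

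**Figure D4:**
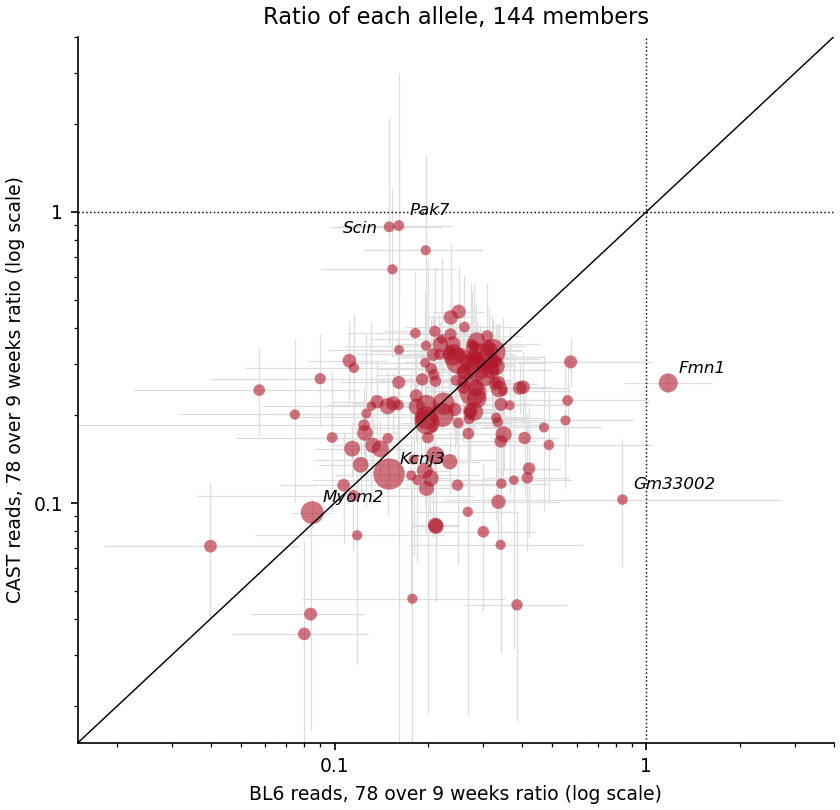
Ratio of BL6 reads (x axis, log scale) and of CAST reads (y axis, log scale), both in RPM, 78 over 9 weeks, for the 144 members with an aged read of each allele, with exact 95% counting intervals in gray that are cut at the axes, and with point size growing with the reads. The diagonal marks equal ratios and dotted lines mark 1. Most points lie near the diagonal below 0.5 on both axes, and Fmn1 is the only one right of 1 on the BL6 axis.

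The exception was Fmn1, a formin that assembles actin filaments. Its CAST reads were 3668 at 9 weeks and 565 at 78 weeks, a ratio of 0.259 (0.236 to 0.283). Its BL6 reads were 97 and 68, a ratio of 1.18 (0.850 to 1.62). The BL6 share was 2.58% at 9 weeks and 10.7% at 78 weeks, so that most reads came from CAST at both ages and the lower level was carried by CAST. The allele with more adult reads weighs more in the total, so by the rule an allele above 0.5 is mostly the other. In all 9 members that did not have both alleles at or below 0.5, the allele above it was the one with fewer adult reads. Besides Fmn1 these were Pak7, a kinase of the p21-activated family, with 43 CAST reads at 9 weeks and 23 at 78 weeks, Pde11a with 37 and 14 CAST reads, Unc13c, a priming factor of synaptic vesicles, with 64 and 21 BL6 reads, Gm33002 with 10 and 5 BL6 reads and, named after their values were seen, Scin, Gm1305, 4930505A04Rik and Ntng1. Their ratios rest on small counts, and the interval for Pak7 CAST reads, 0.517 to 1.52, and for Gm33002 BL6 reads, 0.225 to 2.70, held 1.

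In 6 members 1 allele had no aged read, BL6 in 3 and CAST in 3. Apart from Frem2 this allele had between 4 and 17 adult reads. An extreme case was Gm39020, with 1625 BL6 and 6 CAST reads at 9 weeks and 157 and 0 at 78 weeks. Reads of the adult library were at least 90% from 1 allele in 14 members, 9.33% compared with 0.944% of all loci, of which 6 were from BL6 and 8 from CAST. This share was 6 of 57 among noncoding members, against 3.55% of all long noncoding RNAs, and 5 of 85 among coding members, against 0.620% of all coding genes.

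The BL6 share of the members' summed reads was 51.5% at 9 weeks and 52.0% at 78 weeks. For a single locus, the Newcombe interval of the change in BL6 share left out 0 in 58 members, or 38.7%, against 31.1% of all loci. Of these, 36 had a higher BL6 share at 78 weeks and 22 a higher share at 9 weeks, compared with 1313 and 1193 of all loci. The absolute change had a median of 7.6 percentage points in the members and 4.44 in all loci, with fewer aged reads behind the members.

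The largest changes in share came with few aged reads. Gm40734 had a BL6 share of 37.4% of 420 reads at 9 weeks and 83.7% of 43 reads at 78 weeks, and Gm40733, which overlaps it, 37.8% and 69.6%. Ankrd55 had 25.5% of 251 reads and 61.9% of 21 reads. For Gm34568 the shares were 32.2% and 64.3%, for Tmeff1, a transmembrane protein with follistatin domains, 48.4% and 76.1%, and for Unc13c 27.8% and 52.5%. For Frem2 they were 75.5% and 100%. A lower BL6 share at 78 weeks was found for Pak7, at 86.8% and 54.0%, for Gm32954, at 43.3% and 15.2%, and for Pde11a, at 84.9% and 57.6%.

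In the 15 members with most reads the change was at most 7.34 points, found for Fign at 51.0% and 43.7%. Kcnj3 had a BL6 share of 54.5% at 9 weeks and 58.7% at 78 weeks, with an interval of the change (9 minus 78 weeks) of -6.21 to -2.28 points. In Nr3c2 the shares were 47.8% and 51.5% (-5.81 to -1.58 points), and in Pde1c 32.1% and 27.8% (2.41 to 6.28 points). For Myom2 (42.8% and 40.6%), Kcnn2 (62.2% at both ages), Hs3st5 (50.6% and 51.7%) and Kcnd2 (63.4% and 61.8%) the interval held 0.

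**Figure D5:**
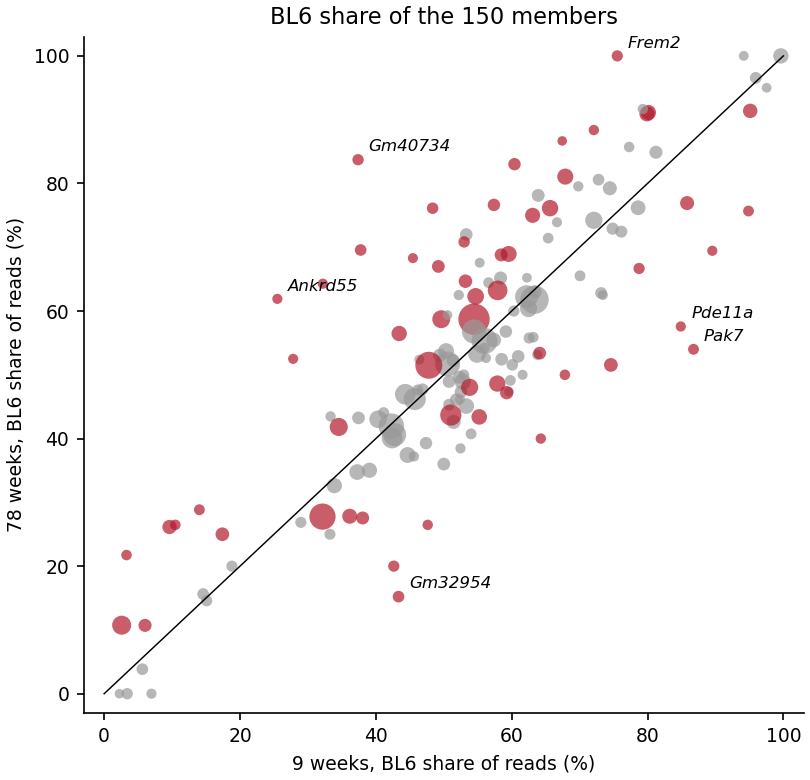
BL6 share of the reads in percent at 9 weeks (x axis) and at 78 weeks (y axis) for the 150 members, with point size growing with the reads. The line marks equal shares, and red points are the 58 members whose Newcombe interval of the change leaves out 0, on both sides of the line.

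In the promoters of the members, 6 short motifs were searched on both strands from 250 bases before to 50 bases after each RefSeq start. The sequences printed above show only the 250 bases before the start. RefSeq tables gave 147 starts for 109 members and 32851 starts for 27025 genes. A TATA box (TATAAA) was in 12.2% of the members' promoters and 13.6% of all, a CCAAT box (CCAAT) in 35.4% and 37.4%, and a GC box (GGGGCGGGG) in 11.6% and 11.4%. An E-box (CACGTG), bound by clock and Myc factors, was in 6.12% and 7.15%, an AP-1 site (TGACTCA) in 6.12% and 5.2%, and a D-box (TTATGTAA) in 1.36% and 0.938%. These shares are descriptions, and several starts of 1 gene can overlap.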

How the data were processed

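Single-nucleus RNA-seq libraries were made from sorted heart nuclei with the 10x Genomics 3′ v3.1 chemistry. The authors aligned reads with Cell Ranger 7.1.0 to mm10, pooled the nuclei with an active BL6 X chromosome of each age and counted SNP-overlapping reads per RefSeq locus with Allelome.PRO2. The deposited values are these counts for BL6, for CAST and in total, without normalization, listed from 1 read upward. The authors also deposited an allelic ratio, a fraction rounded to 2 decimals, and an allelic score, neither of which was used, since BL6 shares were recomputed from counts. Ambient RNA was removed with CellBender and doublets with DoubletFinder from the expression matrices, whereas these counts were taken from the Cell Ranger alignments split by nucleus. Whether the pooled nuclei were those left after doublet removal and whether duplicate reads were collapsed are not given in the sources used here, and reads that are not independent molecules make intervals too narrow.

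Counts were scaled to the library's total of 9747535 (9 weeks) or 5805807 (78 weeks) SNP-overlapping reads. The 2456 autosomal loci listed at 9 weeks alone had at most 49 reads, under the minimum of 200. Ratios have exact conditional Clopper-Pearson 95% intervals and changes in BL6 share Newcombe intervals (Python 3.11.15, scipy 1.17.1). With 1 library per age no test was made and no p-value is given. The functions were tested on simulated data. Starts were shifted to count from 1. Gene types, promoter sequences and starts came from RefSeq tables of GRCm38.p6, the same build, and no protein sequence was used.

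The members, the 44 gene lists and the 6 motifs were chosen with earlier results of these data known. Members were named by a rule. It took the 25 with the lowest ratio, the 15 with most reads, those on a list, up to 10 with the largest change in BL6 share, those with an allele at 1 or higher, the 5 on each side of the threshold and those overlapping another member. Not every member named by it is reported here. Alternatives changed the read minimum, the scale and the ranking, and left out overlapping loci.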

Additional observations from a re-analysis of the deposited data

How the results depend on the processing

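Another selection changed which loci were members. Each one again took 150 loci at the low end, so that a low median and lower alleles mostly follow from the ranking. With a minimum of 100 reads 96 of the 150 members remained, and with 500 reads 89 remained, which are the members that have 500 reads or more. Without loci that overlap another locus 81 remained by construction, and the median ratio of the 150 loci then taken was 0.321. The median under the other alternatives ran from 0.195 to 0.306, and the number with both alleles lower from 145 to 149. The number with an interval of the change in BL6 share that left out 0 ran from 45 to 76. Dividing by the median ratio of all loci put the members' median at 0.215, with 149 still lower in both alleles. Of 49 counts of members on a list under alternatives, 36 were within 1.5 times, the T and NK cell count was 0 or 1 in all 7, and the atrial count of 3 was 1 in 3 of them. Members with few aged reads are limited by depth. No paired analysis was possible because each age has 1 library, and no library could be left out.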
